A study of Homo sapiens with 6 samples.

Results

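Alcohol dehydrogenases (ADH), aldo-keto reductases (AKR), carbonyl reductases (CBR), retinol dehydrogenases (RDH), the wider short-chain dehydrogenase/reductase family (DHRS) and the HSD17B hydroxysteroid dehydrogenases were examined as a group. They were taken from the deposited expression table of SW480 cells by gene symbol, as every symbol that starts with ADH, AKR, CBR, DHRS, RDH or HSD17B followed by a digit. The rule found 47 gene symbols (65 lines, because some symbols are placed at several loci with identical values) among 22258 symbols in all. Of these 47, 37 had a mean of at least 0.688 RPM (reads scaled to a library total of 1000000) and were tested, and 10 were too low. Among the 47 are the antisense transcripts CBR3-AS1 and DHRS4-AS1 and the pseudogenes ADH5P3, ADH5P4, AKR7A2P1 and HSD17B7P2.

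SW480 is a human colon cancer cell line, and ALDH1B1 is an enzyme of the mitochondrion that converts aldehydes, among them acetaldehyde and retinal, to acids. Total RNA of 3 samples with the genotype label ALDH1B1 KD (knockdown, replicates 4, 5 and 6) was compared with 3 control samples with the genotype label WT and SCR in their titles (replicates 4, 5 and 6), and treatment is given as none throughout. How the knockdown was made, whether the cells are 1 clone, and whether replicates are separate cultures is not given in the sources used here, so each p-value covers the spread among these 6 samples only, and that spread may be technical. Depth was about 20360000 to 28590000 reads per sample.

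The enzymes of this group interconvert alcohols with aldehydes or ketones, using NAD or NADP as the electron carrier. Aldehyde dehydrogenases such as ALDH1B1 act one step further on, turning the aldehyde into an acid. In the retinoid pathway, retinol dehydrogenases such as RDH10 make retinal from retinol, retinal reductases such as RDH11, RDH14 and DHRS3 turn it back, and aldehyde dehydrogenases convert retinal to retinoic acid. Other members reduce toxic aldehydes and quinones, activate or inactivate sex steroids, or act in fatty acid and cholesterol synthesis.

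ALDH1B1 itself was at 57.6% of its control level in the knockdown samples. The sample values were 34.1, 39.6 and 36.7 RPM in the control and 19.99, 20.4 and 23.2 RPM in the knockdown, with no overlap (log2 fold change -0.80, SE 0.0926, limma adjusted p = 2.37e-07). Permuting the 6 values exactly (two-sided) gave p = 0.1, and no smaller p is possible with 3 samples against 3. The colon epithelial keratins KRT8, KRT18 and KRT19 were abundant in every sample (766 RPM or more), whereas KRT20 and LGALS4, markers of differentiated colon cells, stayed at or under 0.255 RPM. Of 11 epithelial markers 9 were matched and 7 tested. CDH1 rose from 13.1 to 51.0 RPM, VIL1 from 5.82 to 21.7 and EPCAM from 110.4 to 206.2, CDX2 fell from 54.3 to 32.1, and the list summed to 5433 to 5689 RPM in the control and 5830 to 6142 RPM in the knockdown. Fibroblast and leukocyte markers were low: 3 of 8 fibroblast markers were matched and summed to 4.18 to 5.74 RPM in the control and 5.37 to 7.03 RPM in the knockdown, most of it COL1A1, and 5 of 7 leukocyte markers were matched and summed to 2.31 to 3.53 RPM in the control and 1.96 to 2.66 RPM in the knockdown, where CD68 fell from 1.17 to 0.311 RPM. Of 8 hepatocyte markers only SERPINA1 and CYP2E1 were matched, and SERPINA1, which rose by 0.76 on the log2 scale, made up nearly all of the summed 65.4 to 93.3 RPM in the control and 122.7 to 161.4 RPM in the knockdown. The part of these markers in the results that follow was not tested. In bulk RNA, fewer cells of a type and less RNA per cell cannot be told apart.

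More of these oxidoreductase genes were higher than lower in the knockdown, and the changes were small. Of 37 tested, 12 rose and 2 fell at a limma adjusted p under 0.05. The 12 were CBR3-AS1, AKR1C2, RDH5, RDH14, DHRS2, CBR4, DHRS1, HSD17B1, HSD17B7, RDH10, AKR7A2 and CBR1, and the 2 were ADH5 and RDH11. Of all 15496 genes tested, 22.6% rose and 19.2% fell (41.8% in either direction), against 32.4% and 5.41% (37.8% in either direction) of these genes. The share that changed at all was therefore close to that of all genes, and the split between directions was not tested. The median log2 fold change was 0.23 over the 37 genes and 0.000668 over all tested genes. Without control replicate 6 these medians were 0.13 and -0.05. That sample had the lowest sum over the 47 genes, 637.4 RPM against 702.3 and 703.3 RPM in the other control samples, and the lowest share of reads in listed genes, 65.1% against 70.3% and 71.1%. With quantile normalization 9 of the 37 rose and 5 fell, against 22.1% and 25.0% of all tested genes. Without a variance trend in limma 7 rose and 1 fell, against 19.3% and 14.6%. Median-of-ratios scaling gave 13 and 2, against 25.4% and 24.1%, and leaving out control replicate 6 gave 9 and 2, against 19.7% and 24.1%. The median of the 37 genes stayed above 0 under each scaling, at 0.13 (quantile) to 0.28 (nuclear total, the summed level of all listed genes but the mitochondrial ones set equal). The median over all tested genes was -0.04 with quantile normalization and 0.05 with nuclear total scaling. Nuclear total scaling gave 14 rises and 2 falls, against 29.3% and 18.5% of all tested genes. Values of the groups did not overlap for 15 of the 37 genes, 13 higher and 2 lower in the knockdown, against 26.5% and 24.6% of all tested genes (51.0% in either direction). Log2 fold changes of the tested genes ran from -0.37 to 1.05, and the median absolute log2 fold change was 0.26, against 0.24 over all tested genes.

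**Figure D1:**
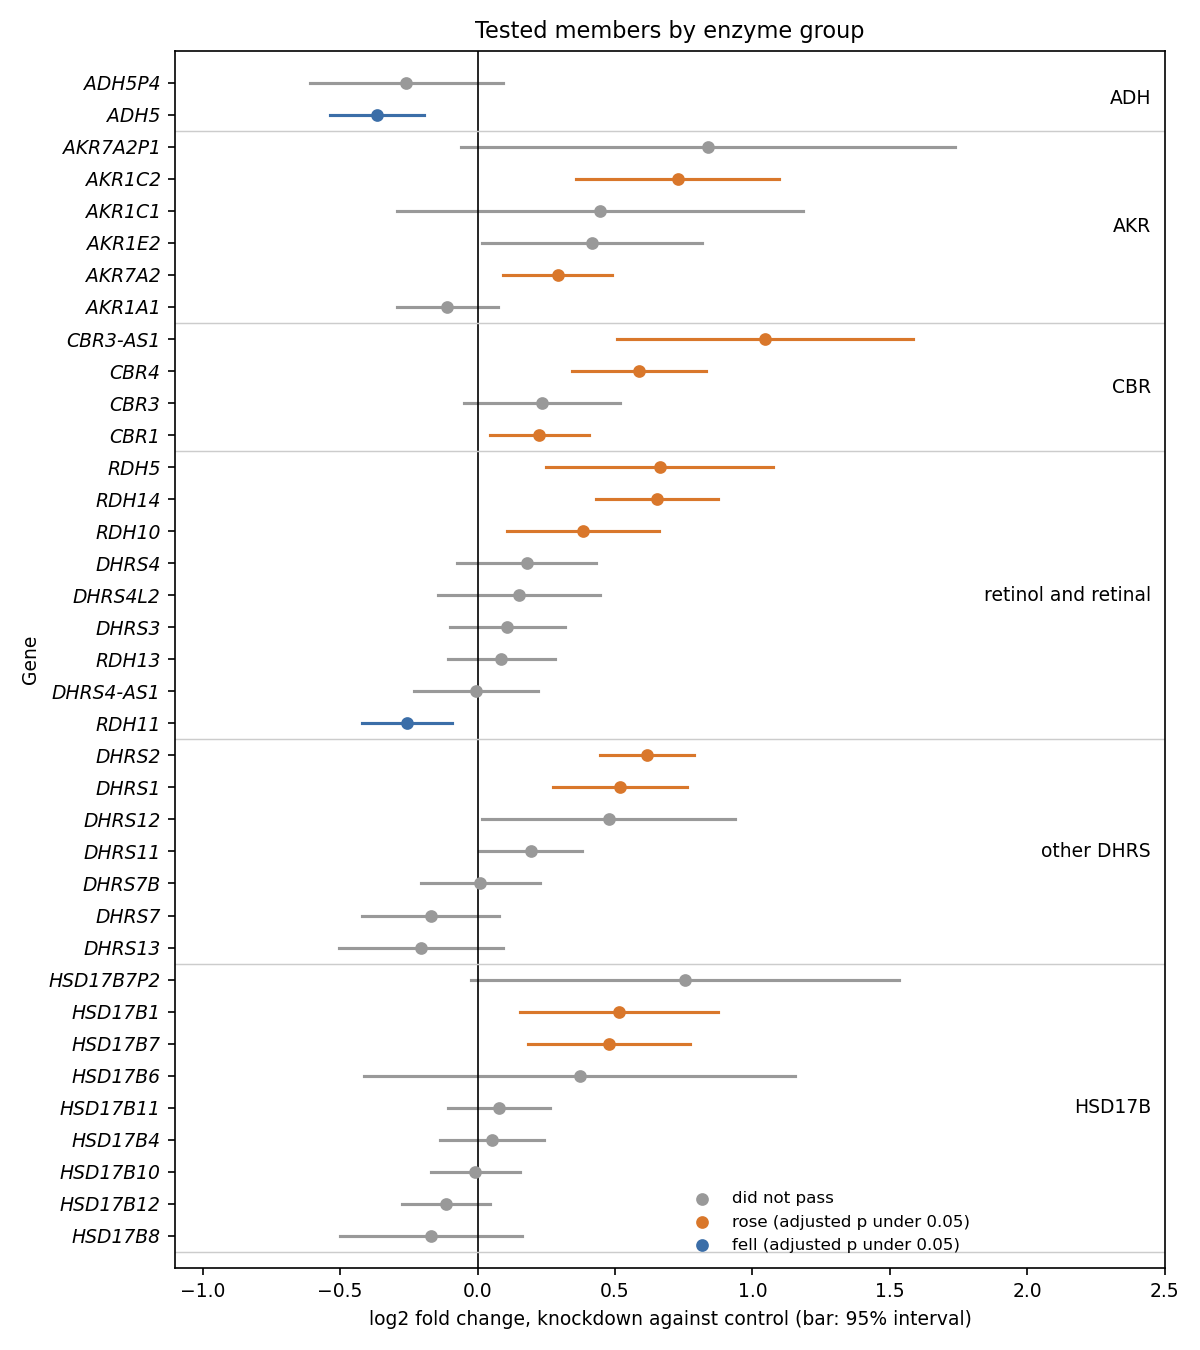
log2 fold change of the 37 tested genes, knockdown against control, with limma's 95% interval as a bar, arranged by enzyme group (3 samples per group). The 12 genes that rose are orange, the 2 that fell, ADH5 and RDH11, are blue, and the other 23 are grey. ADH stands for alcohol dehydrogenases, AKR for aldo-keto reductases, CBR for carbonyl reductases, DHRS for other short-chain dehydrogenases and HSD17B for hydroxysteroid dehydrogenases.

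Levels of different genes were compared per length of exon, taken from GENCODE 29, whose gene models are not those of the table, so the order is approximate. HSD17B10, a mitochondrial dehydrogenase that is also a subunit of the RNase processing mitochondrial transfer RNA, was the most abundant, with a control mean of 65.3 RPM per kb (63.3 to 69.1 over 3 samples). HSD17B12, the ketoacyl-CoA reductase of fatty acid elongation, followed with 31.7 RPM per kb (29.7 to 33.5), then ADH5 with 27.2 (26.6 to 28.3) and RDH11 with 24.6 (22.9 to 26.2). Ranges of these 4 neighbours in the order did not overlap. AKR7A2, DHRS11, DHRS2, HSD17B11 and CBR1 came next with control means of 15.1 to 16.7 RPM per kb, and their ranges overlapped, so their order is not resolved. In the knockdown DHRS2 had a mean of 24.95 RPM per kb, above the means of ADH5 (21.2) and RDH11 (20.6). The knockdown ranges of DHRS2 and ADH5 overlapped, so the order of these 2 is not resolved. The retinol-oxidising RDH10 had 1.54 RPM per kb in the control, against 24.6 for the retinal reductase RDH11 and 10.5 for DHRS3.

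**Figure D2:**
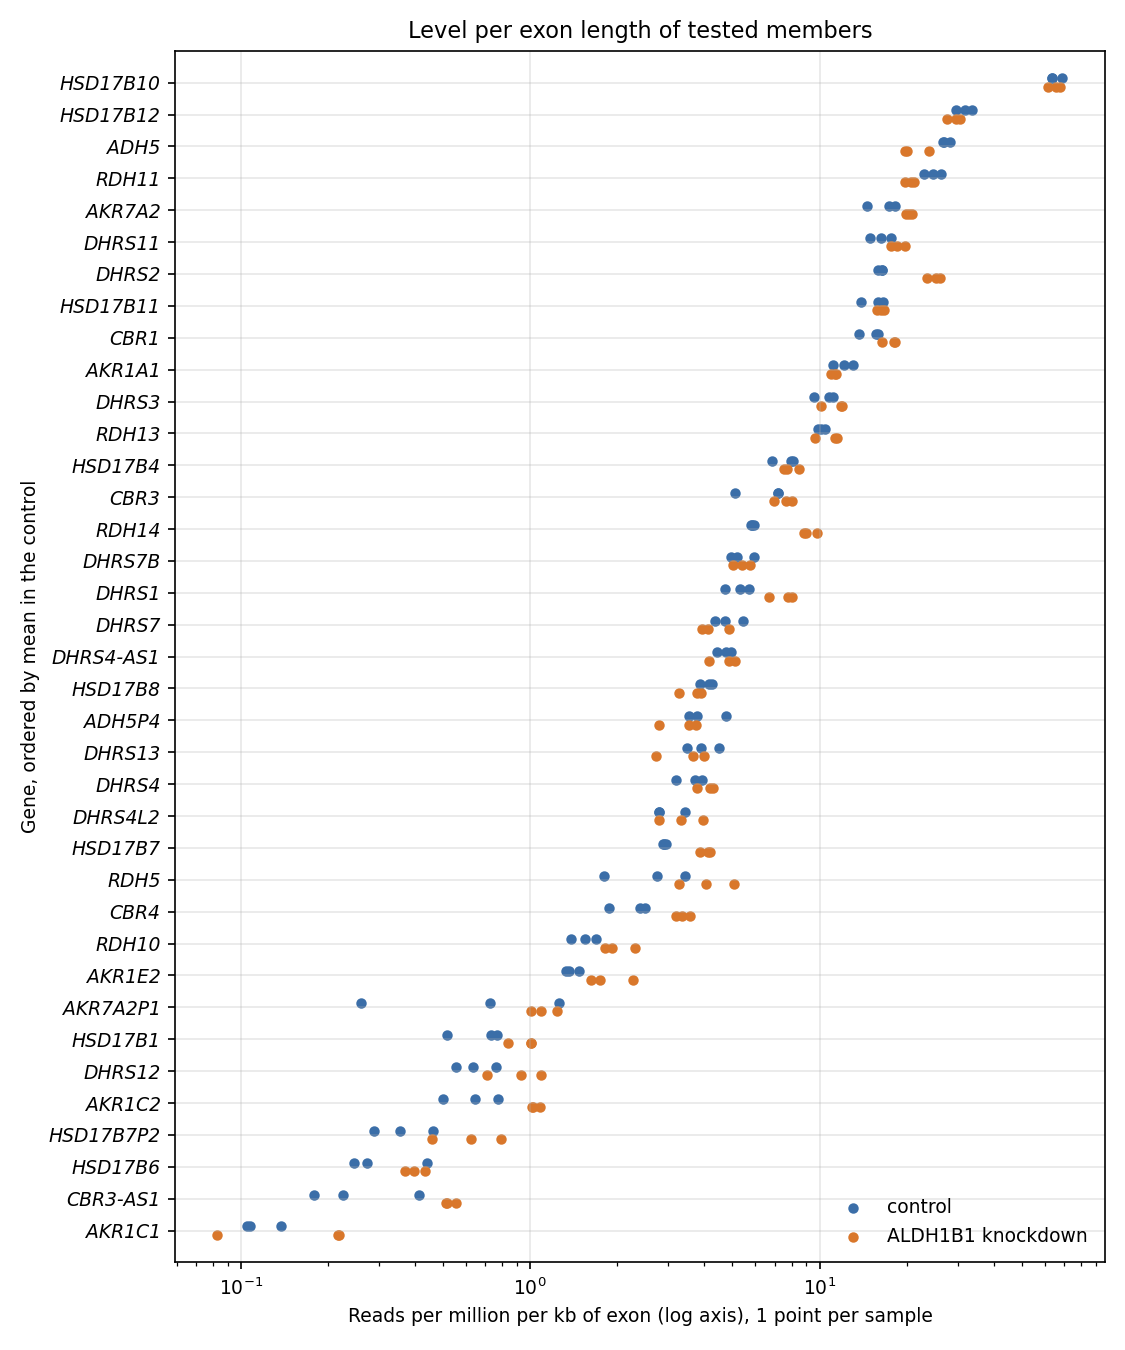
Level of each tested gene in RPM per kb of exon, on a log axis, with 1 point per sample (blue control, orange knockdown, 3 samples each) and genes ordered by control mean. HSD17B10 is highest at 65.3 RPM per kb in the control, and AKR1C1 is lowest of those tested at 0.117.

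Of the alcohol dehydrogenases, ADH5 fell. ADH5 is the class III enzyme, which clears formaldehyde bound to glutathione and also reduces S-nitrosoglutathione. The gene (chromosome 4, 99992132 to 100009953, minus strand, as positioned in the table, which is not GRCh38) had 73.9, 69.6 and 70.1 RPM in control replicates 4, 5 and 6 and 62.3, 52.3 and 51.8 RPM in knockdown replicates 4, 5 and 6. All knockdown samples lay below all control samples, with knockdown replicate 4 nearest to the control. Means were 71.2 ± 2.37 RPM in the control and 55.4 ± 5.92 RPM in the knockdown (SD, n = 3), with a log2 fold change of -0.37 (SE 0.0833, limma adjusted p = 0.000999). Its processed pseudogene ADH5P4, on chromosome 6, had a log2 fold change of -0.26 that did not pass (adjusted p = 0.229), with 24.9% of its words of 50 bases shared with ADH5 transcripts. Summing ADH5 with its pseudogenes gave -0.36 (adjusted p = 0.00111). ADH5P3 had no more than 4 reads in any sample.

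Of the aldo-keto reductases, AKR1C2 and AKR7A2 rose, and none fell. AKR1C2, which inactivates dihydrotestosterone and reduces other ketosteroids (chromosome 10, 5029967 to 5060224, minus strand), had 2.77, 3.32 and 2.15 RPM in the control and 4.35, 4.66 and 4.41 RPM in the knockdown. The knockdown samples were close together and all above the control, whose lowest was replicate 6 (log2 fold change 0.73, SE 0.179, adjusted p = 0.00203). These values rest on 50 to 115 reads per sample. AKR1C1, its neighbour with a preference for progesterone, had 0.826 ± 0.131 and 1.22 ± 0.550 RPM (adjusted p = 0.333), with knockdown replicate 4 lowest of all 6 samples at 0.587 RPM, and without that sample it passed (log2 fold change 0.91, adjusted p = 0.0353). Of the 50-base words in AKR1C2 transcripts, 38.1% also occur in AKR1C1, so reads may have been split between them. Their sum went from 3.57 ± 0.613 to 5.70 ± 0.666 RPM (log2 fold change 0.68, adjusted p = 0.00162).

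AKR7A2, which reduces succinic semialdehyde and aflatoxin dialdehyde (chromosome 1, 19630459 to 19638641), had 23.6, 24.9 and 19.8 RPM in the control and 28.4, 27.2 and 27.7 RPM in the knockdown. The groups did not overlap, and control replicate 6 was again the lowest sample (log2 fold change 0.29, SE 0.0958, adjusted p = 0.0166). The call was lost without that sample or without knockdown replicate 4 (adjusted p = 0.0620 and 0.0566). Its pseudogene AKR7A2P1 had 0.665, 0.237 and 1.15 RPM in the control, a wide spread, and 0.917 to 1.13 RPM in the knockdown (log2 fold change 0.84, adjusted p = 0.127). Its log2 fold change was 0.21 without control replicate 5 and 1.35 without control replicate 6, where it passed (adjusted p = 0.0156). AKR7A2P1 lies within SLC16A1 on the opposite strand, which had means of 191.9 RPM in the control and 210.4 RPM in the knockdown. No source used here says that counting used strand, so reads of this pair may not be separated. AKR1E2, a reductase of anhydrofructose, had 2.27 ± 0.129 and 3.06 ± 0.554 RPM with no overlap between groups, and did not pass (adjusted p = 0.0895). AKR1A1, the general aldehyde reductase, had 28.9 ± 2.26 and 26.8 ± 0.574 RPM (log2 fold change -0.11, 95% interval -0.29 to 0.07, adjusted p = 0.337). The aldose reductase AKR1B1, which turns glucose into sorbitol, was too low for the test, with 1 to 20 reads per sample and 0.0425 to 0.982 RPM. AKR7A3 and AKR7L, close relatives of AKR7A2, were also under the filter, at 0.481 to 0.836 and 0.316 to 1.02 RPM.

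Of the carbonyl reductases, CBR4, CBR1 and the antisense transcript CBR3-AS1 rose. CBR4, a mitochondrial reductase that works with HSD17B8 in mitochondrial fatty acid synthesis (chromosome 4, 169784921 to 169931427), had 10.4, 10.9 and 8.11 RPM in the control and 13.9, 14.5 and 15.4 RPM in the knockdown. Every knockdown sample was above every control sample (log2 fold change 0.59, SE 0.119, adjusted p = 0.000305). Its partner HSD17B8 had 4.05 ± 0.212 and 3.61 ± 0.324 RPM (adjusted p = 0.421). PALLD, which overlaps CBR4 on the opposite strand, moved the other way, with a log2 fold change of -0.60.

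CBR1, the main cytosolic carbonyl reductase of quinones, prostaglandins and anthracyclines (chromosome 21, 37442239 to 37445465), had 38.3, 39.0 and 33.5 RPM in the control and 44.7, 40.2 and 44.5 RPM in the knockdown. The lowest knockdown sample, replicate 5, was just above the highest control sample (log2 fold change 0.23, SE 0.0868, adjusted p = 0.0393). CBR1 missed the threshold without control replicate 4 or 6 or knockdown replicate 4 or 6 (adjusted p = 0.0550, 0.108, 0.128 and 0.112), and with the replicate number as a block (adjusted p = 0.101). SETD4 overlaps CBR1 over 3227 bases on the opposite strand, with means of 9.43 RPM in the control and 14.7 RPM in the knockdown. Whether reads of CBR1 and SETD4 were separated by strand is not known, so the rise may not all belong to CBR1. CBR3, a close relative of CBR1, had 7.58 ± 1.39 and 8.83 ± 0.664 RPM (log2 fold change 0.23, adjusted p = 0.176). CBR3-AS1, the antisense transcript across CBR3, had 2.04, 0.891 and 1.11 RPM in the control and 2.54, 2.55 and 2.75 RPM in the knockdown. It had the largest change of the 14 (log2 fold change 1.05, SE 0.262, adjusted p = 0.00233), although control replicate 4 was near the knockdown values. These values rest on 19 to 72 reads per sample. With RPM + 1 under the log the log2 fold change of CBR3-AS1 was 0.65. It overlaps CBR3 over 11656 bases. Although the labels call the libraries strand-specific, no source used here says that counting used strand, so reads of the pair may not be separated.

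Retinol and retinal enzymes went both ways. RDH14, a retinal reductase (chromosome 2, 18735989 to 18741947), had 9.24, 9.39 and 9.22 RPM in the control and 14.0, 14.2 and 15.6 RPM in the knockdown. Control values were nearly equal and well below the knockdown (log2 fold change 0.65, SE 0.107, adjusted p = 2.91e-05). RDH5, the cis-retinol dehydrogenase of the retinal pigment epithelium (chromosome 12, 56114151 to 56118490), had 3.57, 4.49 and 2.34 RPM in the control and 4.25, 6.63 and 5.29 RPM in the knockdown. Its groups overlapped, with control replicate 5 above knockdown replicate 4 (log2 fold change 0.66, SE 0.200, adjusted p = 0.00978), and the call was lost without control replicate 6 or knockdown replicate 5 (log2 fold changes 0.40 and 0.50, adjusted p = 0.0620 and 0.102). RDH5 shares 59.0% of its 50-base words with the read-through gene BLOC1S1-RDH5. RP11-644F5.10, which lies over RDH5 on the same strand in the table (4338 bases), rose by a similar 0.66. Its means were 8.18 RPM in the control and 12.9 RPM in the knockdown, above those of RDH5. Reads given to RDH5 may therefore not all belong to it.

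RDH10, the enzyme that makes retinal from retinol in the first step to retinoic acid, had 6.37, 6.97 and 5.69 RPM in the control and 9.50, 7.91 and 7.45 RPM in the knockdown. The groups did not overlap (log2 fold change 0.38, SE 0.134, adjusted p = 0.0243), and the call was lost without control replicate 6, knockdown replicate 4 or knockdown replicate 5 (adjusted p = 0.0635, 0.149 and 0.0514). RPL7 overlaps RDH10 over 1179 bases on the opposite strand, with means of 110.3 RPM in the control and 108.0 RPM in the knockdown. Whether their reads were separated by strand is not known. RDH11, a retinal reductase of the endoplasmic reticulum (chromosome 14, 68143518 to 68162532), was the only one of these enzymes that fell. RDH11 had 67.9, 63.7 and 59.4 RPM in the control and 51.1, 53.5 and 55.1 RPM in the knockdown, with no overlap (log2 fold change -0.26, SE 0.0800, adjusted p = 0.0117). Its call was lost without control replicate 4 or knockdown replicate 4 (adjusted p = 0.0937 and 0.0578).

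DHRS3, the retinal reductase that forms a complex with RDH10, had 18.1 ± 1.40 and 19.5 ± 1.83 RPM, a log2 fold change of 0.11 with an interval of -0.10 to 0.32 (adjusted p = 0.415). RDH13, a mitochondrial retinal reductase, had 22.9 ± 0.707 and 24.4 ± 2.29 RPM (adjusted p = 0.482). The peroxisomal carbonyl reductase DHRS4, its copy DHRS4L2 and the antisense DHRS4-AS1 had log2 fold changes of 0.18, 0.15 and -0.01, and none passed. DHRS4L2 shares 32.1% of its words with DHRS4, and their sum did not pass either (log2 fold change 0.17, adjusted p = 0.202). RDH12, known from photoreceptors, and RDH16, known from liver, had no more than 14 and 9 reads in any sample. As a sum, the 11 genes of the retinol and retinal group had 152.6 ± 8.32 RPM in the control and 156.3 ± 4.42 RPM in the knockdown.

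**Figure D3:**
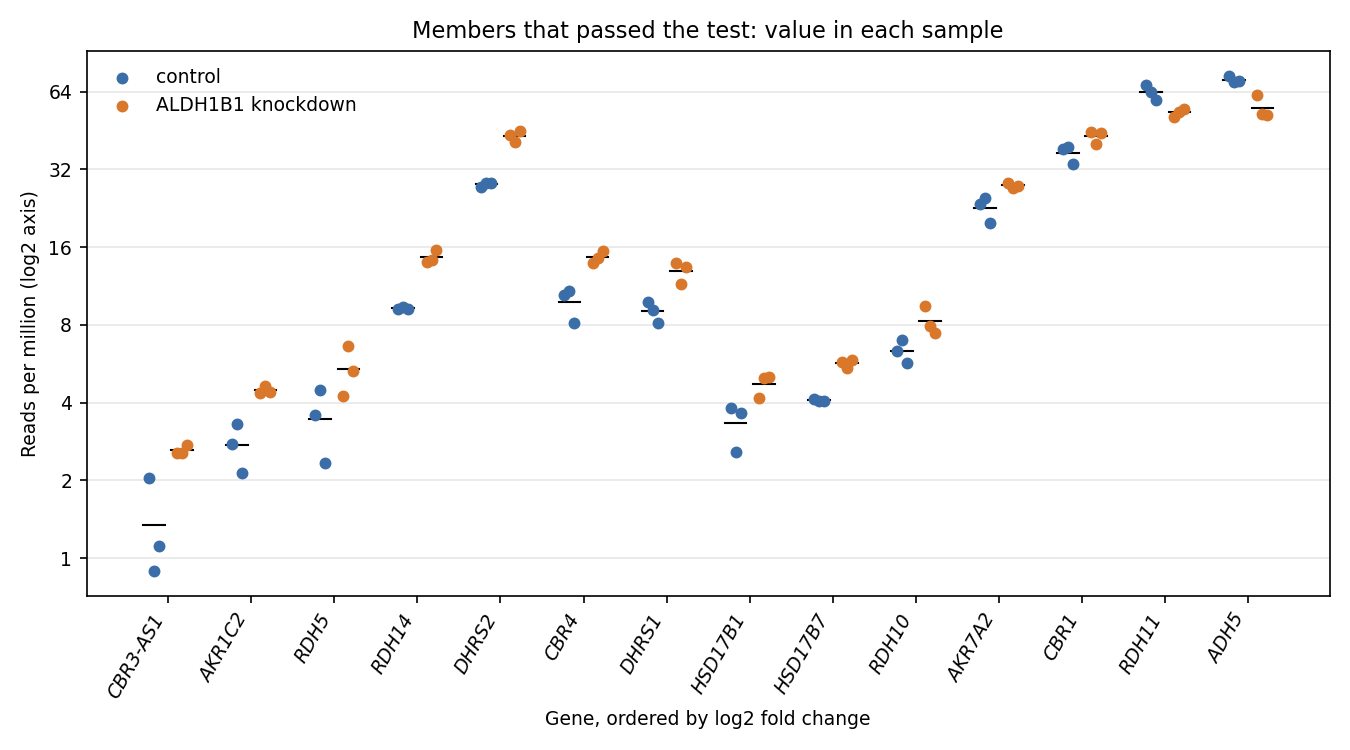
RPM, on a log2 axis, in each of the 3 control samples (blue) and 3 knockdown samples (orange) for the 14 genes that passed the test, with the group mean as a black line. Groups overlap only for RDH5, and ADH5 and RDH11 on the right are the genes lower in the knockdown.

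Among the other DHRS genes, DHRS2 and DHRS1 rose. DHRS2, a dicarbonyl reductase also known as HEP27 (chromosome 14, 24099324 to 24114849), had 27.4, 28.4 and 28.5 RPM in the control and 43.5, 40.7 and 45.02 RPM in the knockdown. It had the smallest p of the whole set, and the control samples were nearly equal (log2 fold change 0.62, SE 0.0837, adjusted p = 2.27e-06). DHRS1, a less studied short-chain dehydrogenase on the same chromosome (24759804 to 24769040), had 9.83, 9.15 and 8.11 RPM in the control and 13.9, 11.5 and 13.5 RPM in the knockdown. The groups did not overlap (log2 fold change 0.52, SE 0.118, adjusted p = 0.000966). DHRS11, which acts on steroid ketones, had 26.01 ± 2.10 and 29.7 ± 1.59 RPM with no overlap and missed the threshold (log2 fold change 0.19, adjusted p = 0.0902). It passed under the other scalings, with an adjusted p of 0.0250 by median-of-ratios, 0.00564 by nuclear total and 0.0202 by quantile normalization. DHRS12, DHRS7B, DHRS7 and DHRS13 had log2 fold changes of 0.48, 0.01, -0.17 and -0.21, and none passed (adjusted p = 0.0889 to 0.947). PCNXL4 overlaps DHRS7 over 25015 bases on the opposite strand and changed by -0.33. Its means were 52.4 RPM in the control and 41.7 RPM in the knockdown. Whether reads of DHRS7 and PCNXL4 were separated by strand is not known. DHRS12 passed without knockdown replicate 5 (log2 fold change 0.65, adjusted p = 0.0480) and with nuclear total scaling (adjusted p = 0.0488). The sum of the 7 genes was 93.5 to 105.1 RPM in the control and 114.3 to 128.2 RPM in the knockdown.

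Of the HSD17B genes, HSD17B1 and HSD17B7 rose, and the most abundant ones were close to their control levels. HSD17B1, which reduces estrone to the active estrogen estradiol (chromosome 17, 40701232 to 40707232), had 3.82, 2.57 and 3.66 RPM in the control and 4.18, 5.002 and 5.02 RPM in the knockdown. The groups did not overlap (log2 fold change 0.52, SE 0.175, adjusted p = 0.0198), and the call was lost without control replicate 5, knockdown replicate 5 or knockdown replicate 6 (log2 fold changes 0.33, 0.47 and 0.47, adjusted p = 0.149, 0.0858 and 0.0628). RP11-400F19.6 overlaps HSD17B1 over 2312 bases on the opposite strand, with means of 14.4 RPM in the control and 15.1 RPM in the knockdown. Here too, separation of reads by strand is not known. HSD17B7, a sterol ketoreductase of cholesterol synthesis (chromosome 1, 162760492 to 162782608), had 4.15, 4.05 and 4.06 RPM in the control and 5.77, 5.43 and 5.86 RPM in the knockdown. Both groups were tight and apart (log2 fold change 0.48, SE 0.144, adjusted p = 0.00943), and the sum with its pseudogene HSD17B7P2 gave 0.52 (adjusted p = 0.00355). HSD17B7 missed the threshold with quantile normalization (adjusted p = 0.0822).

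HSD17B2 runs in the opposite direction to HSD17B1, oxidising estradiol and testosterone, and it is a known product of intestinal epithelium. It was too low for the test. HSD17B2 had 0.945, 0.522 and 0.892 RPM in the control and 0.190, 0.0982 and 0.191 RPM in the knockdown. The knockdown samples were all below the control samples, at 20.3% of the control mean, and the values rest on 2 to 27 reads per sample. In a fit of all 22258 genes without the filter its log2 fold change was -2.31 (adjusted p = 0.00430), the only one of the 10 low genes to pass. Of all genes in that fit, 14.9% rose and 11.9% fell.

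HSD17B10 had 60.8, 66.3 and 61.0 RPM in the control and 65.0, 58.9 and 63.1 RPM in the knockdown. The groups overlapped fully (log2 fold change -0.01, 95% interval -0.17 to 0.15, adjusted p = 0.939). HSD17B12 had 108, 103 and 95.9 RPM in the control and 89.1, 99.0 and 96.0 RPM in the knockdown. It did not pass (log2 fold change -0.11, 95% interval -0.27 to 0.04, adjusted p = 0.242). HSD17B4, the peroxisomal multifunctional enzyme of fatty acid oxidation, and HSD17B11, an enzyme of lipid droplets, had log2 fold changes of 0.05 and 0.08 (adjusted p = 0.673 and 0.503). HSD17B6 had 0.474 to 0.845 RPM and a log2 fold change of 0.37 (adjusted p = 0.455), and HSD17B3, HSD17B13 and HSD17B14 had no more than 8 reads in any sample. The 13 genes summed to 237.8 ± 11.8 RPM in the control and 234.6 ± 5.06 RPM in the knockdown.

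Some of these genes lie in stretches of chromosome where neighbours also differed. For each one the median log2 fold change was taken over tested genes, outside the group, within 5 Mb on either side. RDH14 on chromosome 2 had 20 such neighbours with a median of 0.46, of which 13 rose and 1 fell, and RDH14 exceeded that median by 0.19. CBR1, CBR3 and CBR3-AS1 on chromosome 21 had 55 neighbours with a median of 0.32, of which 35 rose and 2 fell. CBR1 and CBR3 were both 0.09 below that median (differences of -0.09), while CBR3-AS1 was 0.73 above it. SETD4, which overlaps CBR1 on the opposite strand, rose by 0.64. AKR1B1, on chromosome 7, had 45 neighbours with a median of 0.43, of which 27 rose and 1 fell. HSD17B10 on the X chromosome had neighbours with a median of 0.20 and a log2 fold change of its own of -0.01 (a difference of -0.21). ADH5 was 0.22 lower than its 21 neighbours, whose median was -0.14. RDH11 had 54 neighbours with a median of -0.09, of which 5 rose and 17 fell, and it was 0.16 lower than that median (a difference of -0.16). The medians near the other genes that rose were between -0.16 (RDH10) and 0.10 (HSD17B1), and AKR1C2, CBR4, RDH5, DHRS2, RDH10, HSD17B7, DHRS1, HSD17B1 and AKR7A2 exceeded theirs by 0.32 to 0.80.

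**Figure D4:**
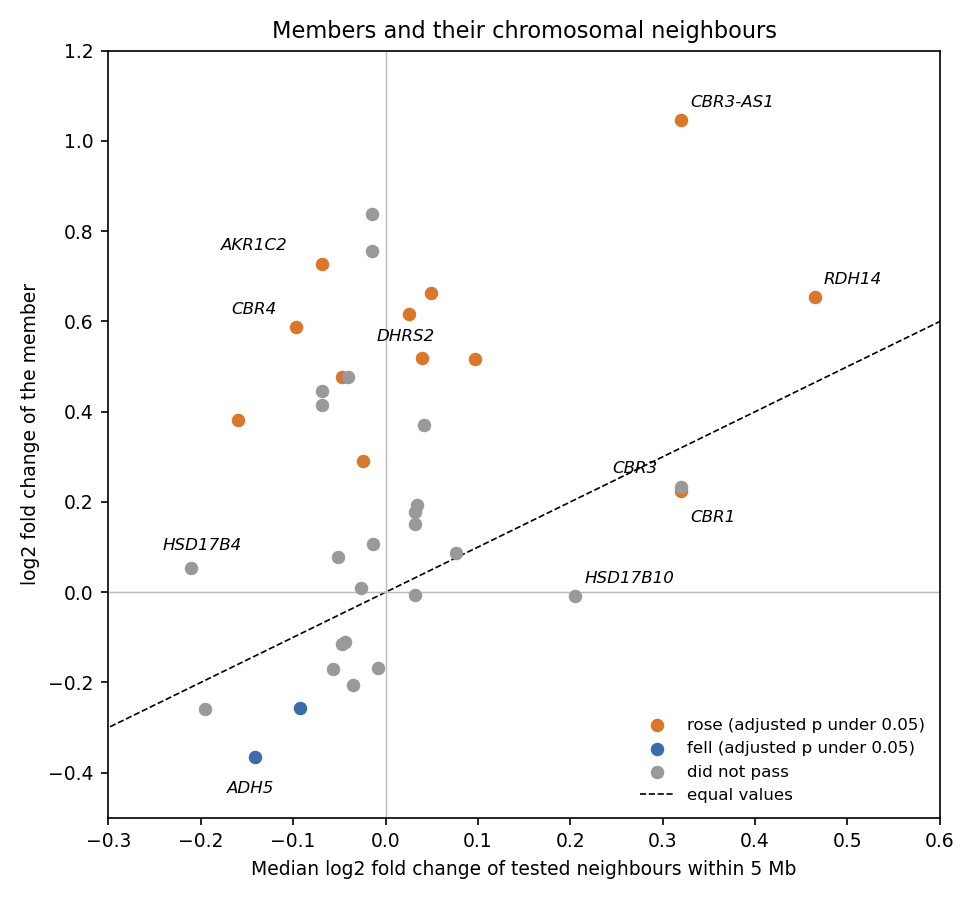
log2 fold change of each tested gene against the median log2 fold change of tested genes within 5 Mb on the same chromosome, with a dashed line where the values are equal. RDH14 and the chromosome 21 genes lie to the right, where neighbours were higher by 0.46 and 0.32, and CBR1 and CBR3 lie just under the line.

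The start-site regions of the genes were searched for short motifs, because AKR and CBR genes are textbook targets of the oxidative stress factor NRF2, which binds the antioxidant response element. RefSeq promoters (GRCh38.p14, 250 bases before to 50 after the first listed start) were found for 33 of the 47 genes. The 33 include AKR1B1, AKR7A3, HSD17B3, HSD17B13 and RDH16, which were not tested, so shares of both tested and all promoters are given. The core TGACNNNGC, read on both strands, was in 5 of the 33 (AKR7A2, CBR1, DHRS1, RDH13 and RDH14). It was in 15.1% of 9915 promoters of tested genes and 13.6% of all 27305, so the share of these genes with the core was close to both. The 4 of these that rose are printed because they show where the core stands, with that core in capitals, and in CBR1 also the E-box CACGTG; RDH13 holds the core too and did not pass. The core begins at base -167, -156 and -95 from the start site in AKR7A2, -159 in CBR1, -62 in DHRS1 and -42 in RDH14.
AKR7A2 promoter (chr1:19312097-19312396, minus strand): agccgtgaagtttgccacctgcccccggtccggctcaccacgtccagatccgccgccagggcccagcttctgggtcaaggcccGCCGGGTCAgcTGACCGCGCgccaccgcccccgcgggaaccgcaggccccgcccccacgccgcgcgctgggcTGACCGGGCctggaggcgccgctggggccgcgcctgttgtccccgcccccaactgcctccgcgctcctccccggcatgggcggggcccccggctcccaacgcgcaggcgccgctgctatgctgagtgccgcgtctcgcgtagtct
CBR1 promoter (chr21:36069774-36070073, plus strand): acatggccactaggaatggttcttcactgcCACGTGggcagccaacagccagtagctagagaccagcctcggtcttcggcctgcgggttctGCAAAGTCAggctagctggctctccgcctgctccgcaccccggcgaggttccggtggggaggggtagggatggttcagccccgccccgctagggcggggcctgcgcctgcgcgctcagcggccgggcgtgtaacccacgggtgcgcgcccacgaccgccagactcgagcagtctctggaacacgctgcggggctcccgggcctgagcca
DHRS1 promoter (chr14:24299731-24300030, minus strand): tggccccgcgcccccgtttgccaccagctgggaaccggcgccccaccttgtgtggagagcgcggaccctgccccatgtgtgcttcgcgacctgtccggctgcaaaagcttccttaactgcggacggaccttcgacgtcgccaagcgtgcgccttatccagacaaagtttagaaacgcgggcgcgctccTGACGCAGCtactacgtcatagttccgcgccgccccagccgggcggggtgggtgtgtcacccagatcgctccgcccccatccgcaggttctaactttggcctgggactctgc
RDH14 promoter (chr2:18560604-18560903, minus strand): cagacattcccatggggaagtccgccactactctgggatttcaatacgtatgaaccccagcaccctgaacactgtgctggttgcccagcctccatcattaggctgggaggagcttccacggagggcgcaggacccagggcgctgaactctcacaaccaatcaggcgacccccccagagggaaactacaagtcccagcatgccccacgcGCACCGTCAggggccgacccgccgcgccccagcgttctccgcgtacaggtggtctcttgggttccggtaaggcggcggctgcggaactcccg
The AP-1 motif TGANTCA was in CBR3-AS1, at -220 and -123, and in HSD17B3, against 4.55% of promoters of tested genes and 7.76% of all. The E-box was in AKR1A1, CBR1 and HSD17B13, against 10.1% and 7.43%. The retinoic acid receptor element DR5 was in 0 of the 33, and in 0.00366% of all promoters. Each match is a description of letters in this window. The core overlaps no other searched motif in the regions printed.

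Other genes of the same pathways were counted in lists. Of 28 genes for retinoid transport, oxidation and signalling, 16 were tested, of which 6 rose and 1 fell (median log2 fold change 0.29). The retinol uptake receptor STRA6 rose from 110 ± 16.98 to 168 ± 15.6 RPM, by 0.62 on the log2 scale. RETSAT, which saturates retinol, rose by 0.52 and the retinoic acid carrier CRABP2 by 0.35, while FABP5, which also carries retinoic acid, changed by -0.60. Of 19 aldehyde dehydrogenases 15 were tested, of which 5 rose and 3 fell (median 0.15). ALDH3A1, which clears lipid and aromatic aldehydes, rose from 3.28 ± 0.684 to 10.7 ± 0.647 RPM, by 1.73, and ALDH3B1 and ALDH5A1 rose by 1.08 and 0.45. The 3 that fell were ALDH1B1 itself, ALDH6A1 of valine breakdown (-0.32) and ALDH18A1 of proline synthesis (-0.21).

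Of 26 NRF2 targets outside the group 25 were tested, of which 3 rose and 7 fell (median -0.10). The conjugate exporter ABCC3 rose by 1.09 and the glutathione peroxidase GPX2 by 1.15, while the ferritin light chain FTL changed by -0.54 and the thioredoxin reductase TXNRD1 by -0.36. Of 22 further steroid enzymes and their partners 9 were tested, of which 2 rose and 0 fell at the limma threshold (median -0.04). These were FDXR, which passes electrons to mitochondrial P450 enzymes, by 0.57, and the cholesterol sulfotransferase SULT2B1 by 1.27. Of 36 other alcohol and carbonyl dehydrogenases 32 were tested, of which 5 rose and 6 fell (median -0.04). The quinone oxidoreductase TP53I3 rose by 0.998 and CRYZL1 by 0.62, while the ketone body enzyme BDH1 changed by -0.40 and the NADPH sensor NMRAL1 by -0.39. These lists are described by counts and medians only, beside the 22.6% and 19.2% of all genes that rose and fell.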

How the data were processed

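Expression of total RNA was read from 1 table of 6 columns. The values deposited by the authors are the log2 of RPM plus 1e-04, a scale read from the values. Partek, Bowtie and hg38 are named in the submitters' processing notes; how reads were counted and filtered is not given in the sources used here, and the table's positions are not GRCh38. The value of 1 read was taken from the step between low values, which gave the depth. Symbols at several loci (1192) were used once. Of 22258 symbols, the 15496 with a mean of at least 0.688 RPM (1 per 1000000 reads of listed genes) were tested with limma (R 4.3.3, limma 3.58.1, statmod 1.5.0), lmFit and eBayes with trend, two-sided, Benjamini-Hochberg over all tested genes, threshold 0.05, no covariates. Rose and fell are used only past it. Means are RPM ± SD over 3 samples. On simulated data with 100 of 15496 genes shifted by 0.5 and 100 by 1 log2 unit, the fit recovered 48% and 77%. It also called 6 genes that were not shifted. Far fewer genes were shifted there than the 41.8% called here, so these rates do not give the sensitivity in the real data.

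Every tested gene of the group was named, untested genes by their range; from each list up to 4 genes with the smallest adjusted p. SETD4, PALLD, PCNXL4, RP11-644F5.10, HSD17B2's unfiltered fit, ALDH6A1, ALDH18A1 and the markers were described after their values were seen. The genes, lists and tests were chosen with earlier results of these data known. Alternatives covered offset, scaling, filter, variance prior, replicate block, each sample left out, summed copies and neighbours. Words of 50 bases were compared within GENCODE 29 transcripts. Figures used matplotlib 3.10.9 under Python 3.11.15.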

Additional observations from a re-analysis of the deposited data

How the results depend on the processing

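Of the 14 genes that changed, 7 (ADH5, AKR1C2, CBR3-AS1, CBR4, DHRS1, DHRS2 and RDH14) kept direction and call in every one of up to 16 refits, and 8 (also HSD17B7) in all 6 that left out 1 sample. CBR3-AS1 was in only 15 refits, because it lay under the filter set at 5 times the main level. The matching share over all genes that changed was not computed, so these counts do not set the group apart from other genes. The number that rose was 9 to 11 and the number that fell 1 to 2 when 1 sample was left out, against 18.7% to 22.3% and 13.1% to 24.1% of all tested genes, the fall to 1 coming without control replicate 4 or knockdown replicate 4. With quantile normalization 9 rose and 5 fell, with ADH5P4, DHRS13 and DHRS7 added to the falls, DHRS11 added to the rises, and HSD17B1, HSD17B7, RDH10 and RDH5 lost. Without a variance trend 7 rose and 1 fell, with AKR7A2, CBR1, HSD17B1, RDH10, RDH5 and RDH11 lost. CBR1 was also lost with no filter on low values. In these settings the cause was not tested. Subtracting the median of neighbours was not among those refits. With it CBR1 changed sign, to -0.095, RDH14 went from 0.65 to 0.19 and ADH5 from -0.37 to -0.22. Of the other genes kept in every refit, CBR3-AS1 went from 1.05 to 0.73, DHRS1 from 0.52 to 0.48 and DHRS2 from 0.62 to 0.59. AKR1C2 went from 0.73 to 0.80 and CBR4 from 0.59 to 0.68. Deviations from the group mean correlated at -0.05, -0.06 and -0.13 between same-numbered samples, which gives no pairing; with the replicate block 11 rose and 2 fell, against 20.5% and 14.9% of all tested genes, and CBR1 was lost. ALDH1B1 fell in every refit (log2 fold change -0.86 to -0.74 with 1 sample left out). Depth limits the 10 untested genes, where 3 reads equal 0.105 to 0.147 RPM.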
